A study of Mus musculus with 16 samples.

Results

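The STAT and SOCS genes described here are Stat2, Stat4, Stat5a, Stat5b, Stat6, Socs1, Socs2, Socs3 and Cish, which are 9 of the 23282 rows of the count tables and were picked by gene symbol; Stat3 was left out of the set by its definition. RNA came from the dorsal skin of wild-type (WT) male C57BL/6N mice that arrived at an age of 3 weeks and had 1 week to adapt. Cont mice ate normal chow. LowAhR mice ate a diet poor in ligands of the aryl hydrocarbon receptor (AhR), a sensor of small aromatic molecules, for 12 weeks on bedding free of such ligands. LowAhR+AD mice had the same diet and, from week 2 on, 1% DNCB on the dorsal skin 2 times a week for 10 weeks, a hapten that causes a dermatitis used as a model of atopic dermatitis (AD). LowAhR+AD+BJ mice had diet, DNCB and daily gavage of BJIKT (Bojungikgi-tang, a herbal water extract) at 1 g/kg per day. Each group had 4 skin samples drawn at random, with 1 library each. DNCB was given only together with the low-ligand diet, so a comparison of LowAhR+AD with Cont holds both, and no group had BJIKT without DNCB. The sources do not say that each sample was a separate mouse, so p-values measure the spread between skin samples.

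STAT proteins are transcription factors that lie in the cytoplasm until a cytokine receptor and its Janus kinases phosphorylate them, after which they pair, enter the nucleus and bind DNA. The SOCS proteins, to which CIS (the product of Cish) belongs, are made in answer to STAT activity and shut the receptor down again, so their transcripts are widely read as a trace of recent signalling. In skin, STAT6 carries the signal of IL-4 and IL-13, the cytokines of type 2 inflammation, STAT5 that of growth hormone, prolactin, TSLP and IL-2 type cytokines, STAT2 that of type I interferon and STAT4 that of IL-12. The activity of STAT proteins is set by phosphorylation, which transcript counts do not measure.

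Library totals were 7080508 to 8773876 counts in Cont and LowAhR and 10614393 to 13467477 counts in LowAhR+AD and LowAhR+AD+BJ. Every library with DNCB was thus deeper than every library without it, and the part of depth in the differences was not tested. Levels are counts scaled to the library size (CPM), with library sizes scaled by TMM factors. The library LowAhR+AD replicate 1 stood apart: of its 1129 genes for which the other 3 libraries of the group predicted 20 to 40 counts, 38.2% had no count, against 0.798% to 13.6% in the other libraries. For several results, values are given with and without it. The last section gives the number of members called without it. That section also gives the range of each log2 fold change whose direction turned with any 1 library left out. All 9 genes were among the 14854 tested rows. In skin as a bulk tissue, fewer cells of a type and less RNA per cell cannot be told apart.

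Between them, 3 differences passed the test. Stat5b was lower in the LowAhR+AD libraries than in those of LowAhR and of Cont, and Cish was higher in LowAhR+AD than in Cont. No member passed in LowAhR against Cont, in LowAhR+AD+BJ against LowAhR+AD or in LowAhR+AD+BJ against LowAhR. The plot of every library shows the levels from which these comparisons were made.

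**Figure D1:**
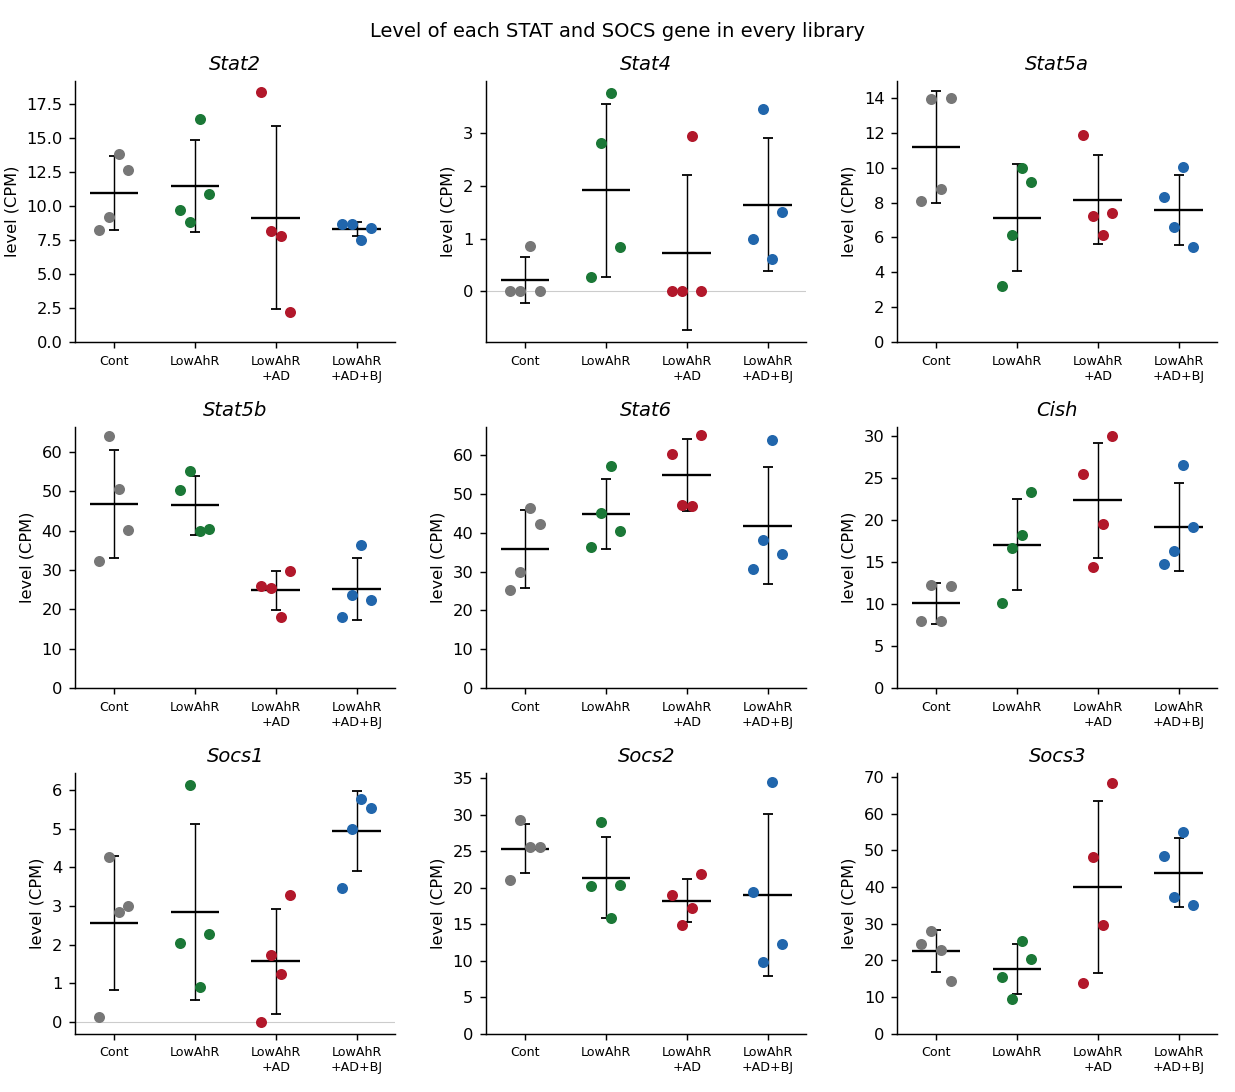
Level of each of the 9 genes (CPM, linear axis) in every library; each point is 1 library, thick bars are group means and thin bars 1 SD (n = 4). The 4 LowAhR+AD libraries lie below all LowAhR and Cont libraries for Stat5b, and above all Cont libraries for Stat6 and Cish, while Stat4 had no count in 3 libraries of Cont and 3 of LowAhR+AD.

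Some of these genes hold, near a transcript start, the letters that STAT dimers recognise, and these stretches are shown because Cish and Socs3 are textbook STAT targets whose levels are described further on. Promoter windows of 300 bases (250 before to 50 after the start; RefSeq, GRCm38.p6) were given for 8 of the 9 members, 11 windows in all, with Socs2 the member without one. The motif TTCNNNGAA, which reads the same on both strands and is bound by STAT dimers, occurred in 8.3% of 32851 windows of that length, TTCNNNNGAA, the wider spacing known for STAT6, in 6.95%, and GAAANNGAAA, an interferon response type motif searched on both strands, in 3.44%. Capitals mark the matches in the lines that follow, each of 30 bases, written 5′ to 3′ on the strand of the gene.
Cish, chr9:107296654-107296683, plus strand: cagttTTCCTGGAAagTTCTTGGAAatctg
Socs3, chr11:117969502-117969531, minus strand: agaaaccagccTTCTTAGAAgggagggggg
Socs1, chr16:10785597-10785626, minus strand: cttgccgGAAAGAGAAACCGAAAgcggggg
Stat2, chr10:128270272-128270301, plus strand: ctggTTTCAGTTTCctTTCCCTAGAActca
The Cish stretch held 2 matches of TTCNNNGAA, beginning at positions 1 and 12 from the annotated start, and lay in an exon of 1 of the 5 annotated transcripts. Socs3 had 1 match, beginning at position -154. Socs1 had 2 matches of GAAANNGAAA that overlap each other, at -83 and -77. Stat2 had 1 match of GAAANNGAAA on the opposite strand, at -222, and 1 of TTCNNNNGAA at -210. One of the Stat4 windows held GAAANNGAAA at -97, and the windows of Stat5a, Stat5b and Stat6 held none of the 3 motifs. A match describes letters and says nothing of whether a factor was bound in these samples.

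Stat5b encodes 1 of the 2 STAT5 proteins, which act downstream of growth hormone, prolactin and IL-2 type cytokines. The gene lies on chromosome 11 at 100780731 to 100850724 on the minus strand (GRCm38), 8626 bases from Stat5a. In Cont it stood at 32.3, 64.0, 50.7 and 40.2 CPM (46.8 ± 13.7, SD, n = 4). LowAhR libraries held 50.3, 55.1, 39.8 and 40.4 CPM (46.4 ± 7.54). LowAhR+AD libraries held 26.01, 25.5, 17.9 and 29.8 CPM (24.8 ± 4.96). The diet alone left the Stat5b values intermingled, and all 4 LowAhR+AD libraries were below every library of both groups without DNCB. With BJIKT the values were 18.1, 23.5, 36.3 and 22.5 CPM (25.1 ± 7.81). These mixed with the LowAhR+AD values and stayed below all LowAhR values, though replicate 3 at 36.3 CPM was above the lowest Cont library. For LowAhR+AD+BJ against LowAhR the log2 fold change of Stat5b was -0.88 (SE 0.27; edgeR adjusted p = 0.0526). This difference passed when Cont replicate 1, LowAhR+AD replicate 1 or LowAhR+AD replicate 3 was left out of the shared model. It passed with RLE factors (edgeR adjusted p = 0.0447), upper-quartile factors (0.0426), at least 10 counts in every library (0.0316) and only the 8 libraries compared (0.0449), and in DESeq2 (adjusted p = 0.0206), and the edgeR adjusted p ran from 0.0165 without LowAhR+AD+BJ replicate 3 to 0.153 without LowAhR+AD+BJ replicate 1.

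From LowAhR to LowAhR+AD, Stat5b fell by a log2 fold change of -0.90 (SE 0.27; edgeR adjusted p = 0.0323). Against Cont the log2 fold change was -0.92 (SE 0.27; edgeR adjusted p = 0.0195). Both comparisons use the same 4 LowAhR+AD libraries and are not independent of each other. In each, the exact two-sided permutation p was 0.0286, the smallest that 4 against 4 libraries can give. Over the members and comparisons 45 such tests were made, and the permutation p-values quoted are unadjusted. After Benjamini-Hochberg adjustment over these 45 the lowest permutation p was 0.161, so no member difference passed in this test. The calls were near the threshold: against LowAhR the edgeR adjusted p was 0.0795 without LowAhR replicate 1, 0.0946 without LowAhR replicate 2, 0.0631 without LowAhR+AD replicate 2, 0.0786 without LowAhR+AD replicate 3 and 0.0592 with only the 8 libraries compared, at log2 fold changes of -0.78 to -1.002 over all libraries left out in turn. Against Cont it was 0.0810 without Cont replicate 2, 0.0515 without Cont replicate 3 and 0.0599 without LowAhR+AD replicate 3. Without LowAhR+AD replicate 1, the library that stood apart, both differences passed (edgeR adjusted p = 0.0433 and 0.0221).

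Stat5a, the close relative of Stat5b, did not show this pattern. Its levels were 8.08, 13.9, 8.75 and 14.0 CPM in Cont (11.2 ± 3.22, n = 4) and 3.24, 6.14, 10.01 and 9.18 CPM in LowAhR (7.14 ± 3.09). In LowAhR+AD they were 11.9, 7.22, 6.14 and 7.38 CPM (8.16 ± 2.55), and in LowAhR+AD+BJ 8.30, 6.61, 10.03 and 5.44 CPM (7.60 ± 2.00). The groups overlapped in every comparison. From LowAhR to LowAhR+AD the log2 fold change of Stat5a was 0.19 with a 95% interval of -0.68 to 1.06, which overlaps the interval of Stat5b (-1.46 to -0.35); the difference between the genes was not tested. That value was -0.049 (SE 0.43) when LowAhR+AD replicate 1, at 11.9 CPM, was left out. The 2 coding sequences, taken as the longest open reading frames, were 90.8% identical over 2294 aligned bases. Of 426 stretches of 75 bases in the last 500 bases of the longest Stat5a transcript, 0 occurred without mismatch in Stat5b. Matches with mismatches and the ends of other transcripts were not searched, so whether the counted reads of the 2 genes were kept apart was not tested. Stat5a overlaps Stat3 by 72 bases at their 3′ ends on opposite strands, and the sources do not say whether counting used strand, so its counts are uncertain.

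Stat6, the transcription factor of IL-4 and IL-13, showed higher levels in LowAhR+AD than in Cont without passing the test. The 4 Cont libraries held 25.1, 29.8, 46.4 and 42.2 CPM (35.9 ± 10.035, SD, n = 4) and the LowAhR libraries 36.2, 45.0, 57.2 and 40.5 CPM (44.7 ± 9.04). The LowAhR+AD libraries held 60.4, 47.1, 46.9 and 65.3 CPM (54.9 ± 9.36), all above every Cont library and mixed with those of LowAhR. For LowAhR+AD against Cont the log2 fold change of Stat6 was 0.61 (SE 0.26; edgeR adjusted p = 0.107; exact permutation p = 0.0286), and the edgeR adjusted p stayed at or above 0.0629 in all alternatives (0.167 without LowAhR+AD replicate 1, at 0.55). Of the LowAhR+AD+BJ libraries, 3 at 30.6, 34.6 and 38.3 CPM were below all of LowAhR+AD and replicate 3, at 63.9 CPM, was not (41.8 ± 15.1). The log2 fold change of Stat6 between these 2 groups was -0.39 (95% interval -0.95 to 0.16; edgeR adjusted p = 0.648). Stat6 overlaps Nab2, a repressor of EGR factors, by 40 bases at their 3′ ends on opposite strands, so its counts carry the same uncertainty as those of Stat5a.

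Stat2, a factor of the type I interferon response, stayed between 8.21 and 13.8 CPM in Cont and between 8.83 and 16.4 CPM in LowAhR. In LowAhR+AD its values were 18.4, 8.20, 7.77 and 2.25 CPM, the widest scatter of any of its groups, with the highest value in replicate 1. No comparison of Stat2 passed with or without that library; without it the log2 fold changes of LowAhR+AD were -0.91 against LowAhR (edgeR adjusted p = 0.194) and -0.86 against Cont (edgeR adjusted p = 0.166). The LowAhR+AD+BJ libraries held 7.54 to 8.66 CPM and were all below the LowAhR libraries, the nearest of which stood at 8.83 CPM. That difference did not pass (log2 fold change -0.46, SE 0.46; edgeR adjusted p = 0.623; exact permutation p = 0.0286).

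Stat4, which passes on IL-12 signals in T and NK cells, was close to the detection limit, with 173 counts in all 16 libraries together. In Cont the counts were 0, 0, 7 and 0, in LowAhR 2, 22, 29 and 7, in LowAhR+AD 0, 0, 38 and 0 and in LowAhR+AD+BJ 11, 34, 8 and 15. Every LowAhR and LowAhR+AD+BJ library thus had at least 1 count, and 3 of 4 libraries in each of the other groups had none, which allows up to 3 counts (0.229 to 0.387 CPM). No comparison of Stat4 passed with all libraries. Without LowAhR+AD replicate 3, which held all 38 counts of its group, LowAhR+AD against LowAhR passed as lower (edgeR adjusted p = 0.0423). The fitted fold changes of Stat4 depend on the prior count. They are plotted with those of the other members, and quoted only where changes of direction are listed in the last section. The transcript Gm28177 runs over Stat4 on the same strand, its 3′ end included, so these counts may belong in part to it.

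Cish encodes CIS, which binds receptors of STAT5-activating cytokines and is itself a classic STAT5 target. It lies on chromosome 9 at 107296026 to 107302784 on the plus strand. The pseudogene Gm17040 and the antisense gene Gm17041 overlap it on the opposite strand, by 1167 and 1459 bases. Neither covers its 3′ end, but the strand setting of the counting is not given, so its counts may hold some of their reads. Cont libraries held 7.95, 12.3, 8.01 and 12.2 CPM (10.1 ± 2.45, n = 4). LowAhR libraries held 10.1, 16.6, 18.2 and 23.4 CPM (17.1 ± 5.45). LowAhR+AD libraries held 25.5, 14.4, 19.5 and 30.01 CPM (22.4 ± 6.83). From lowest to highest, the group means of Cish stood in the order Cont, LowAhR and LowAhR+AD, with LowAhR overlapping both neighbours and LowAhR+AD lying wholly above Cont. The LowAhR+AD+BJ values of 14.8, 16.4, 26.6 and 19.2 CPM (19.2 ± 5.23) lay among those of LowAhR and LowAhR+AD.

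Against Cont, Cish was higher in LowAhR+AD by a log2 fold change of 1.15 (SE 0.33; edgeR adjusted p = 0.0189; exact permutation p = 0.0286). This call was lost without Cont replicate 1 (edgeR adjusted p = 0.0520), Cont replicate 3 (0.0563) or LowAhR+AD replicate 4 (0.0665), and kept without LowAhR+AD replicate 1 (1.06; 0.0323). For LowAhR against Cont the log2 fold change of Cish was 0.76 (SE 0.33), with an unadjusted edgeR p of 0.0339 and an adjusted p of 0.309. From LowAhR to LowAhR+AD it was 0.39 (95% interval -0.29 to 1.07; edgeR adjusted p = 0.468). So the difference that passed spans the diet and DNCB together, and neither step passed alone. Stat5b and Cish differed from Cont in opposite directions in LowAhR+AD.

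Socs3, which blocks receptors of the gp130 type and is induced by STAT3, came near the threshold wherever DNCB-treated groups were set against LowAhR. Its levels were 24.4, 28.0, 22.9 and 14.5 CPM in Cont (22.4 ± 5.73, n = 4) and 15.5, 9.46, 25.4 and 20.3 CPM in LowAhR (17.7 ± 6.77). In LowAhR+AD they were 14.0, 48.1, 29.6 and 68.2 CPM (39.97 ± 23.4). With BJIKT they were 48.5, 37.1, 54.9 and 35.0 CPM (43.9 ± 9.44). Of the LowAhR+AD libraries 3 exceeded all LowAhR and Cont libraries, and replicate 1, which stood apart in its missing genes, was below all of these but 1; all LowAhR+AD+BJ libraries exceeded both groups.

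For LowAhR+AD against LowAhR the log2 fold change of Socs3 was 1.18 (SE 0.40; edgeR adjusted p = 0.0586), and without LowAhR+AD replicate 1 it was 1.46 (SE 0.33; edgeR adjusted p = 0.00951). Against Cont it was 0.83 (edgeR adjusted p = 0.143), and 1.10 without that library (edgeR adjusted p = 0.0218). Conversely, without LowAhR+AD replicate 4 the value against LowAhR was 0.79 (edgeR adjusted p = 0.209). For LowAhR+AD+BJ against LowAhR the log2 fold change was 1.31 (SE 0.40; edgeR adjusted p = 0.0540; exact permutation p = 0.0286), and it passed in DESeq2 (adjusted p = 0.0201), with at least 10 counts in every library (edgeR adjusted p = 0.0370) and with only the 8 libraries compared (edgeR adjusted p = 0.0234). It also passed when LowAhR+AD replicate 1 (edgeR adjusted p = 0.0126) or replicate 4 (0.0422) was left out of the shared model. The 2 comparisons share the LowAhR libraries.

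Socs1 inhibits Janus kinases directly and answers to interferon, and its counts were low. They were 1, 33, 23 and 25 in Cont, 15, 48, 7 and 19 in LowAhR, 0, 21, 16 and 41 in LowAhR+AD and 38, 49, 74 and 55 in LowAhR+AD+BJ. As levels, the LowAhR+AD libraries held 0, 1.72, 1.24 and 3.29 CPM, and the LowAhR+AD+BJ libraries held 3.47, 4.99, 5.75 and 5.54 CPM, so that all 4 of the latter were higher, the narrowest gap being 3.29 against 3.47 CPM. Socs1 did not pass (log2 fold change 1.65, 95% interval -0.52 to 3.83; edgeR adjusted p = 0.616; exact permutation p = 0.0286). Without LowAhR+AD replicate 1, where it had no count, the log2 fold change was 1.23 (SE 0.88).

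Socs2, an inhibitor of growth hormone signalling and a STAT5 target, did not pass in any comparison. Its means were 25.4 ± 3.38 CPM in Cont, 21.4 ± 5.52 in LowAhR, 18.2 ± 2.92 in LowAhR+AD and 19.0 ± 11.1 in LowAhR+AD+BJ (SD, n = 4). The Cont libraries ranged from 21.0 to 29.3 CPM and the LowAhR+AD libraries from 14.9 to 21.8, overlapping in 1 library of each. The log2 fold change of Socs2 between these groups was -0.48 (95% interval -1.18 to 0.23; edgeR adjusted p = 0.344; exact permutation p = 0.0571). With BJIKT the values of Socs2 ran from 9.77 CPM in replicate 2 to 34.4 CPM in replicate 3, more than in any other group.

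The counts of members that passed were read against the share of all tested genes that passed. In LowAhR+AD against LowAhR, 1 of the 9 members passed and it was lower, where 12.6% of all genes passed in edgeR, 6.42% higher and 6.21% lower. In LowAhR+AD against Cont, 2 members passed, 1 higher and 1 lower, where 21.8% of all genes did, 12.3% higher and 9.47% lower. Between LowAhR+AD+BJ and LowAhR, 0 members passed and 6.77% of all genes did; 2 members and 22.2% of all genes had an unadjusted edgeR p under 0.05, and DESeq2 called 2 members and 11.2% of all genes. In edgeR these counts lay near the shares of all genes, so the set did not stand out by its number of calls. The DESeq2 count of 2 of 9 lay above its share of all genes, and 9 members are too few to tell such shares apart.

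In LowAhR against Cont and in LowAhR+AD+BJ against LowAhR+AD, 0% of all genes and 0 members passed in the edgeR test. At an unadjusted p under 0.05 there were 1 member and 2031 genes (13.7%) in the first and 0 members and 1405 genes (9.46%) in the second. DESeq2 called 493 and 17 genes (3.32% and 0.114%) and 0 members, and limma voom called 0 genes in both. For the effect of BJIKT on DNCB-treated skin the 95% intervals of the log2 fold changes still allowed sizeable differences: -0.54 to 0.57 for Stat5b, -0.90 to 0.46 for Cish, -0.68 to 0.95 for Socs3 and -0.64 to 0.77 for Socs2.

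Groups that did not overlap were counted in the same way. This held for 0 members in LowAhR against Cont (11.3% of all genes), 1 in LowAhR+AD against LowAhR (18.8%), 3 in LowAhR+AD against Cont (24.7%), 1 in LowAhR+AD+BJ against LowAhR+AD (5.08%) and 3 in LowAhR+AD+BJ against LowAhR (17.1%). The medians of the members' log2 fold changes were 0.06, -0.23, -0.26, 0.02 and -0.10 in that order, beside medians over all tested genes of 0.03, 0.04, 0.05, -0.00023 and 0.01.

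**Figure D2:**
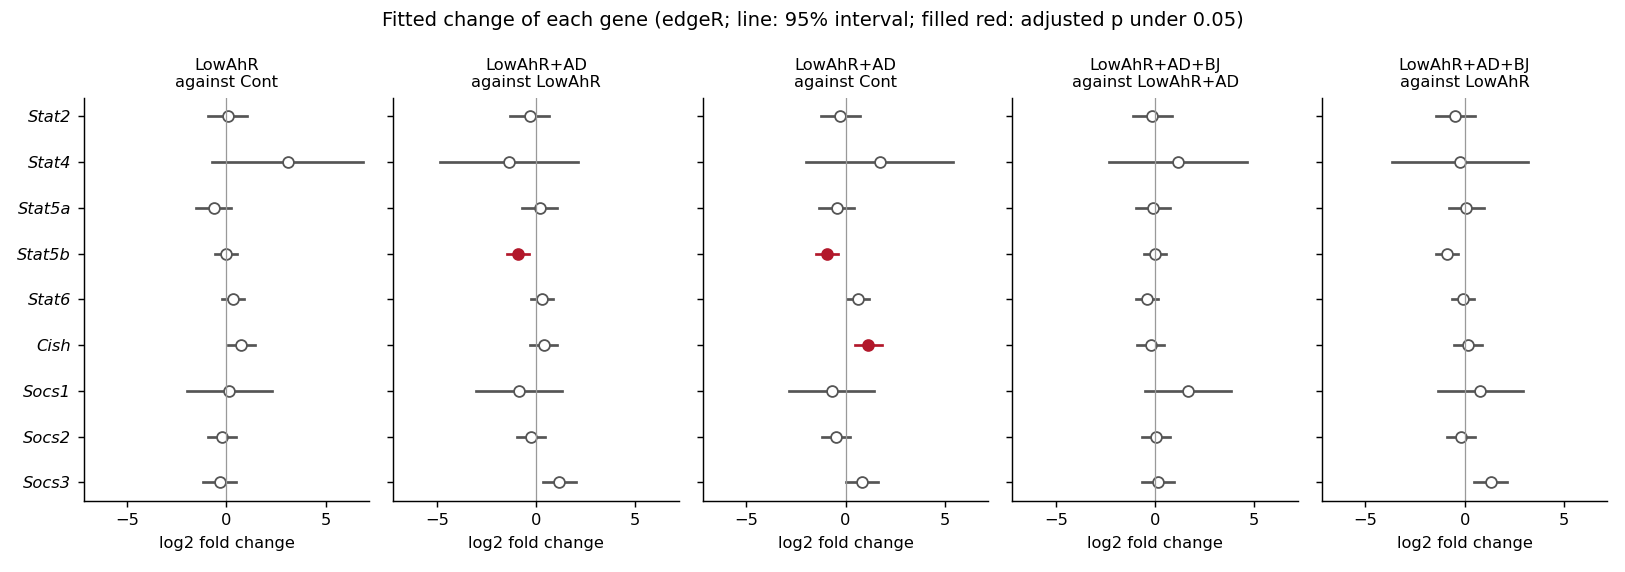
Fitted log2 fold change of each gene in the 5 comparisons (edgeR; points are estimates, lines 95% intervals, filled red points an adjusted p under 0.05). Filled points are Stat5b in LowAhR+AD against LowAhR (-0.90) and against Cont (-0.92) and Cish against Cont (1.15); the wide lines belong to Stat4 and Socs1, whose counts were low.

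The plot of adjusted p-values shows how close the leading differences lay to the threshold. The estimates of Stat5b, Cish and Socs3 kept their direction in all alternatives of these 6 comparisons, and their adjusted p fell on either side of 0.05 as single libraries were left out.

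**Figure D3:**
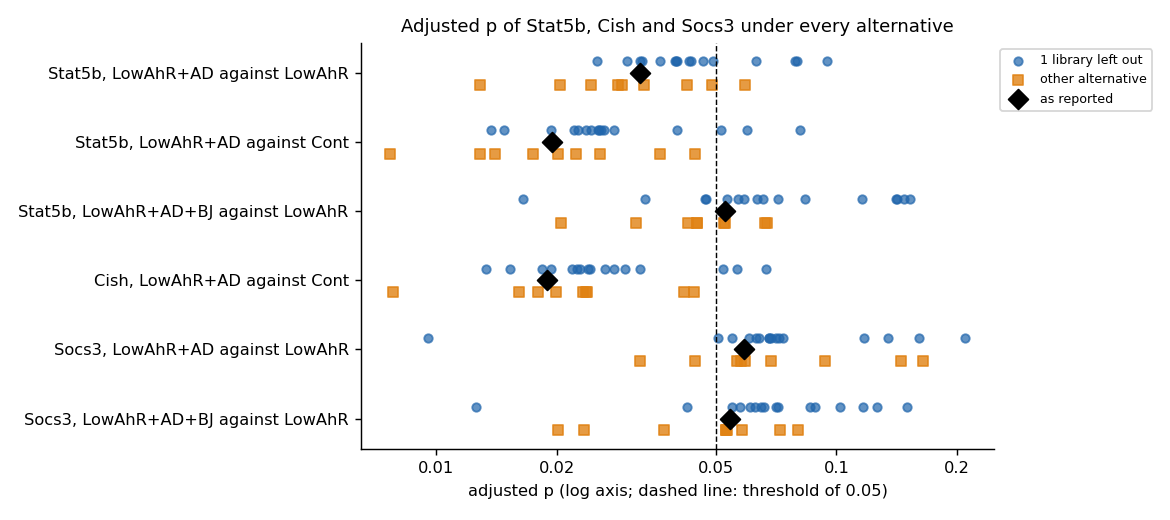
Adjusted p of 6 member differences (log axis; dashed line at 0.05) as reported (diamonds), with 1 of the 16 libraries left out (circles) and under the other alternatives (squares; other normalizations, tests and filters). Each of the 6 has points on both sides of the line, for Stat5b in LowAhR+AD against LowAhR from 0.0128 to 0.0946.

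Of the STAT and SOCS genes outside the set, Stat3, Socs4, Socs5, Socs6 and Socs7 were measured alongside, and 1 of these 5 passed in LowAhR+AD against LowAhR. Socs5, an inhibitor of EGF receptor and IL-4 receptor signalling, stood at 9.19, 8.44, 6.50 and 15.7 CPM in LowAhR and at 55.1, 35.7, 16.6 and 36.9 CPM in LowAhR+AD. All LowAhR+AD libraries were higher, replicate 3 only just, and Socs5 passed (log2 fold change 1.85, SE 0.42; edgeR adjusted p = 0.00890). The LowAhR+AD+BJ libraries, at 39.4, 33.9, 18.7 and 36.0 CPM, were also above LowAhR (log2 fold change 1.68; edgeR adjusted p = 0.0231). Stat3, the STAT of IL-6 and IL-22 signalling, stood at 103 ± 42.0 CPM in LowAhR and 154 ± 21.1 in LowAhR+AD (log2 fold change 0.57, SE 0.25; edgeR adjusted p = 0.149). In Cont it stood at 111 ± 19.8 CPM, and all 4 LowAhR+AD libraries were above every Cont library, as for Stat6. With BJIKT it stood at 110 ± 27.8 CPM, with 3 libraries below all of LowAhR+AD, also as for Stat6. For Socs4, Socs6 and Socs7 the log2 fold changes of LowAhR+AD against LowAhR were -0.89, -0.25 and -0.34, and none passed.

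The machinery around the STATs was described with lists of pathway genes, comparing LowAhR+AD with LowAhR. In this comparison 12.6% of all tested genes passed, 6.42% higher and 6.21% lower. A list with 1 call among 8, 9 or 10 tested genes therefore lies near the share of all genes. None of the 4 Janus kinases and none of the 5 interferon receptors passed. Of 10 tested receptors of the common gamma chain and IL-4/IL-13 type, 1 rose and 0 fell, namely Il4ra, the receptor chain that activates STAT6, from 54.1 ± 12.7 to 114 ± 60.4 CPM (log2 fold change 1.07, SE 0.33; edgeR adjusted p = 0.0382). Of 6 receptors of the gp130 type, 2 fell and 0 rose. Il6ra, the chain that binds IL-6, fell from 60.9 ± 9.81 to 9.74 ± 3.23 CPM (log2 fold change -2.64, SE 0.36; edgeR adjusted p = 3.36e-04), and Lifr, the LIF receptor, by 0.79 on the log2 scale (edgeR adjusted p = 0.0373).

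Other receptor lists followed. Of 8 listed receptors of IL-12, IL-23 and the IL-10 family, 5 had enough counts to be tested, and 3 fell and 0 rose. The IL-12 and IL-23 chains Il12rb1, Il12rb2 and Il23r had no counts in most libraries and were not among those tested. Il20rb, a shared chain of the receptors of IL-19, IL-20 and IL-24, went from 146 ± 35.6 to 59.8 ± 28.5 CPM (edgeR adjusted p = 0.00960), and Il22ra1, the IL-22 receptor chain, from 27.9 ± 10.3 to 10.2 ± 3.78 CPM (edgeR adjusted p = 0.0181). Il20ra, another of these chains, held 2.17 to 10.003 CPM in LowAhR and 0 to 0.246 CPM in LowAhR+AD (edgeR adjusted p = 0.0125). Among 8 tested hormone and colony stimulating factor receptors 1 fell and 0 rose: Ghr, the growth hormone receptor, a receptor that acts through STAT5, went from 133 ± 23.4 to 43.5 ± 14.6 CPM (log2 fold change -1.61, SE 0.37; edgeR adjusted p = 0.00993). In Cont, Ghr stood at 71.0 ± 13.2 CPM, so its LowAhR level was itself above that of Cont.

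Among ligands, 8 of 27 listed cytokines that signal through STATs had enough counts to be tested, and 1 rose. That was Il24, a cytokine of the IL-20 group, which had 0 counts in all Cont and LowAhR libraries and 1.32 to 40.7 CPM in LowAhR+AD (edgeR adjusted p = 0.00433). Of 9 other inhibitors of JAK-STAT signalling 1 rose, Ptpn1, a phosphatase that acts on Janus kinases (log2 fold change 0.89, SE 0.22; edgeR adjusted p = 0.0143).

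Genes known as targets of the STATs were counted by factor. Of 12 interferon targets, a class to which STAT2 contributes, and of 6 STAT5 targets, 0 passed in either direction against LowAhR. In LowAhR+AD against Cont, where Stat5b and Cish passed, 1 of the 6 STAT5 targets was lower and 0 were higher. There 4 of 8 STAT3 targets were higher and 1 lower, and 2 of 9 tested STAT6 targets were higher and 2 lower. No interferon or STAT4 target passed against Cont, where 21.8% of all genes did. From LowAhR to LowAhR+AD, 3 of 8 STAT3 targets rose and 0 fell. Saa3, an acute phase protein, held 3.78 to 8.84 CPM in LowAhR and 101 to 3447 CPM in LowAhR+AD (log2 fold change 8.20, SE 1.11; edgeR adjusted p = 3.04e-04). Timp1, an inhibitor of matrix proteases, went from 5.38 ± 3.58 to 62.2 ± 24.2 CPM (log2 fold change 3.53; edgeR adjusted p = 0.00457), and Il4ra is on this list as well.

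Of 9 tested STAT6 targets 2 rose and 1 fell. Chil3, a chitinase-like protein of activated macrophages, had 0 counts in all LowAhR libraries and 13.4 to 93.1 CPM in LowAhR+AD (edgeR adjusted p = 0.00159), and Il4ra was the other that rose. Retnla, which STAT6 induces in macrophages, fell from 1362 ± 547 to 75.6 ± 50.6 CPM (log2 fold change -4.17, SE 0.79; edgeR adjusted p = 0.00318). In Cont, Retnla stood at 520 ± 246 CPM. Listed STAT6 targets thus moved in both directions, and without LowAhR+AD replicate 1 the list had 3 that rose and 1 that fell. Of 3 tested STAT4 targets 1 rose, Furin, a protease, from 104 ± 22.3 to 266 ± 196 CPM (log2 fold change 1.35; edgeR adjusted p = 0.0191). Without LowAhR+AD replicate 1, Furin (0.69; edgeR adjusted p = 0.0658) and Lifr (-0.78; edgeR adjusted p = 0.0562) no longer passed, and every other gene of these lists named as passing still did. Without that library 3 further genes, named here after their values were seen, passed in edgeR: Il18r1, an IL-18 receptor chain on the STAT4 list (-2.02; adjusted p = 0.0329), Il13ra1, an IL-13 receptor chain (0.76; adjusted p = 0.0368), and Arg1, the arginase on the STAT6 list (1.74; adjusted p = 0.00575). The median log2 fold changes of the lists were 0.99 for STAT3 targets, 0.21 for STAT5 targets, -0.63 for STAT6 targets and -0.22 for interferon targets, beside 0.04 over all tested genes.

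**Figure D4:**
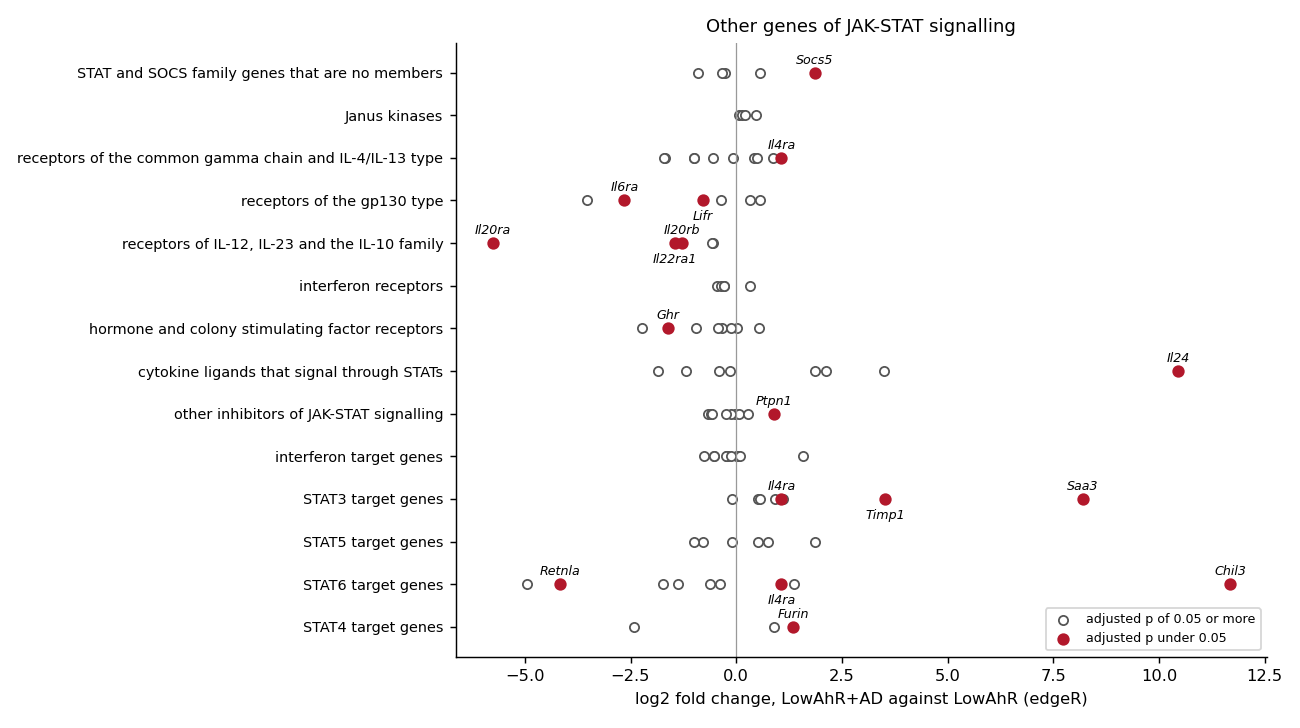
Change from LowAhR to LowAhR+AD (log2 fold change) of the other JAK-STAT genes by list (edgeR; each point 1 tested gene, filled red at an adjusted p under 0.05). No filled point lies among Janus kinases, interferon receptors, interferon targets or STAT5 targets; the values of Chil3 and Il24 depend on the prior count because LowAhR libraries had 0 counts.

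Markers of other cell types moved with this comparison. All 8 skeletal muscle markers fell from LowAhR to LowAhR+AD, and their summed level was 7161 to 20292 CPM in LowAhR and 387 to 3214 CPM in LowAhR+AD. Of 7 adipocyte markers 5 fell, with sums of 6968 to 11418 CPM and 295 to 3702 CPM. Of 6 fibroblast markers 2 fell, with sums of 28016 to 54068 CPM and 3896 to 22584 CPM. Of 7 keratinocyte markers, which define the epidermis of the labelled tissue, 2 rose and all were present (5811 to 7203 CPM and 7663 to 14029 CPM). The summed levels of muscle, fat and fibroblast markers were thus lower, and those of keratinocyte markers higher, in every LowAhR+AD library than in any LowAhR library, as Stat5b was lower, and their part in its difference was not tested. With library sizes taken without muscle, hair follicle and fat markers, the log2 fold change of Stat5b was -0.90 (edgeR adjusted p = 0.0331).

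Immune markers did not move as one. Of 7 tested T cell markers 2 fell, with sums of 21.6 to 38.5 CPM in LowAhR, 3.13 to 13.515 CPM in LowAhR+AD and 6.00 to 19.6 CPM in LowAhR+AD+BJ, and none was at 0 in every library of a group. Of 5 tested neutrophil markers 2 rose (16.4 to 29.9 CPM in LowAhR and 22.7 to 118 CPM in LowAhR+AD). Of 6 mast cell markers 1 rose (280 to 548 CPM and 474 to 964 CPM). Of 7 macrophage markers 0 passed (1237 to 1419 CPM and 227 to 1535 CPM). Of 5 endothelial markers and of 10 hair follicle markers 0 passed in this comparison, the latter with sums of 98.7 to 9107 CPM in LowAhR and 6378 to 22862 CPM in LowAhR+AD. Of 5 general leukocyte markers 1 fell (215 to 308 CPM and 90.0 to 212 CPM). In the NK cell and ILC list 1 of 4 tested markers fell, and its defining gene Ncr1 was at 0 in all Cont and LowAhR+AD libraries; B cell sums were at most 5.74 CPM, with Ms4a1 at 0 throughout LowAhR and LowAhR+AD. Without LowAhR+AD replicate 1, 6 of 8 muscle markers fell, 3 of 6 tested neutrophil markers and 1 of 5 endothelial markers rose, and 0 of 6 mast cell markers passed. NK cell and ILC sums were 384 to 612 CPM in LowAhR and 114 to 274 CPM in LowAhR+AD. These sums and those of T cell and leukocyte markers were lower in every LowAhR+AD library than in any LowAhR library, as Stat5b was. Sums of neutrophil, mast cell, macrophage and B cell markers overlapped between the groups. The part of these cells in the levels of Stat4, Stat5b, Socs1 and Socs3 was not tested.

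Other markers moved between Cont and LowAhR+AD, where Cish and Stat5b passed. Of 10 hair follicle markers 9 rose and 0 fell, with sums of 19.0 to 912 CPM in Cont and 6378 to 22862 CPM in LowAhR+AD and a median log2 fold change of 5.81. Of 5 tested neutrophil markers 4 rose (8.72 to 13.04 CPM in Cont), of 6 mast cell markers 3 (297 to 393 CPM), of 7 keratinocyte markers 2 (5781 to 7202 CPM) and of 5 endothelial markers 1 (92.5 to 109 CPM). Those that fell were 4 of 8 skeletal muscle markers (5750 to 10758 CPM in Cont), 3 of 6 fibroblast markers (27673 to 69501 CPM), 2 of 7 adipocyte markers (2744 to 5345 CPM), 2 of 7 T cell markers (21.4 to 40.4 CPM), 1 of 5 leukocyte markers and 1 of 4 NK cell and ILC markers. No macrophage marker passed. With LowAhR+AD replicate 1 left out, 10 hair follicle and 2 macrophage markers rose, and 4 fibroblast and 2 NK cell and ILC markers fell. With library sizes taken without muscle, hair follicle and fat markers, Cish still passed against Cont (log2 fold change 1.15; edgeR adjusted p = 0.0180), as did Stat5b (log2 fold change -0.91; edgeR adjusted p = 0.0201). The part of these cells in the differences of Cish and Stat5b from Cont was not tested.

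**Figure D5:**
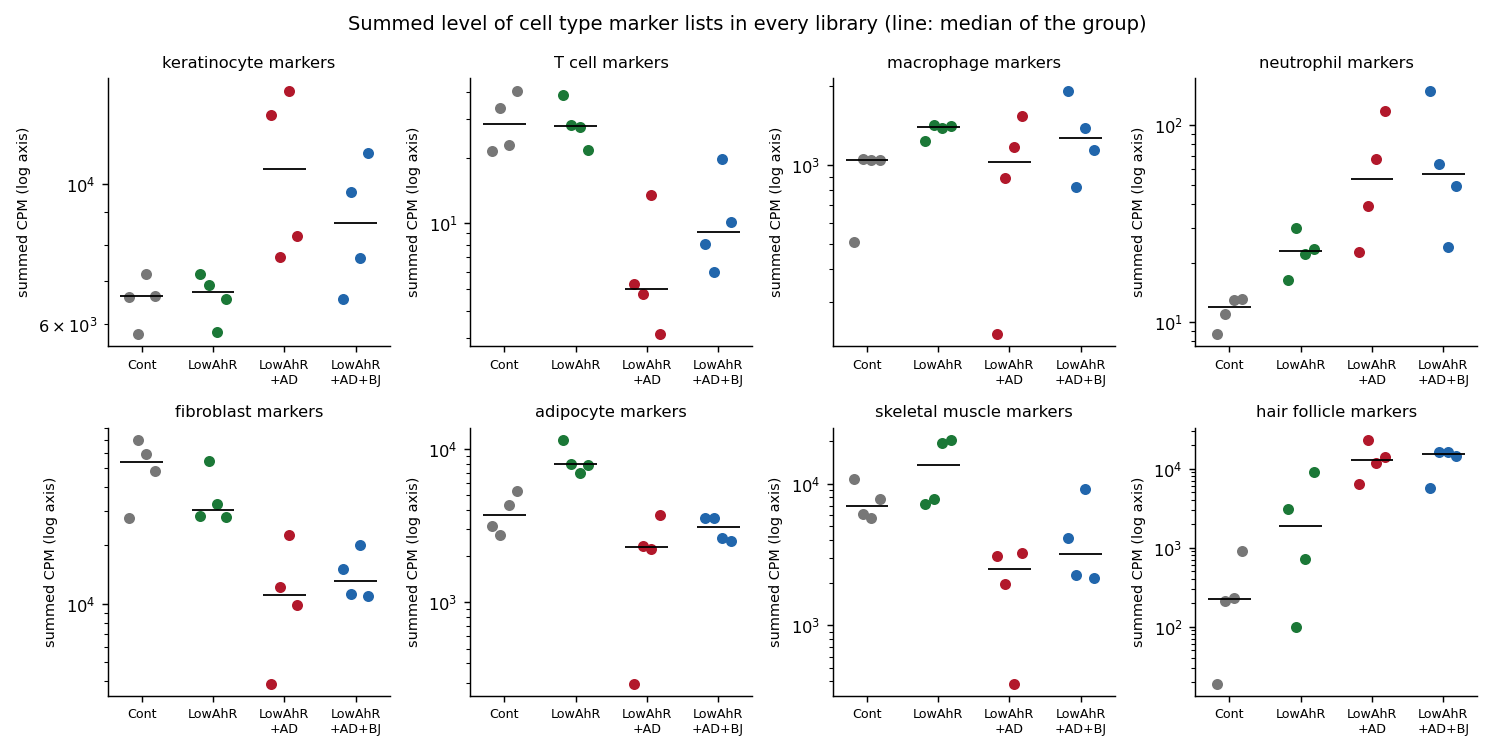
Summed CPM of 8 marker lists in every library (log axis; each point 1 library, line the group median). Muscle and fat sums are lower in LowAhR+AD (387 to 3214 and 295 to 3702 CPM) than in LowAhR, while neutrophil sums reach 118 CPM in LowAhR+AD and T cell sums stay at or below 13.515 CPM.

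The genes whose pattern over the 16 libraries was most like that of the called members were found by the root mean square difference of log2 CPM after each gene was centred on its own mean, among 9386 tested genes with a mean of at least 10 CPM. Nearest to Stat5b were Faah (0.27 on the log2 scale), Sqstm1 (0.27) and Tmbim1 (0.28), where Stat5b itself varied by 0.55 about its mean. Sqstm1, for example, had mean levels of 394 CPM in Cont, 375 CPM in LowAhR, 216 CPM in LowAhR+AD and 243 CPM with BJIKT. Nearest to Cish were Zmat5 (0.27), Polr2c (0.28) and Bad (0.31), where Cish varied by 0.56, and Bad had mean levels of 43.4, 68.4, 89.6 and 84.4 CPM in the same order. Likeness of this kind describes these libraries, which share their groups.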

How the data were processed

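The authors deposited, for each library, raw counts by gene symbol, made from QuantSeq 3′ libraries of total skin RNA read from a single end; per the labels, Bowtie2, bedtools and mm10 were used, with versions, strand setting and handling of multiply mapped reads not given in the sources used here. Files had 23282 rows (23238 symbols). Counts were analysed with edgeR 4.0.16 in R 4.3.3: filterByExpr (minimum count 10, minimum total 15), TMM factors, and the quasi-likelihood test with all 16 libraries in one model and Benjamini-Hochberg adjustment over 14854 rows (threshold 0.05). The study's own program and its test of group means were not rerun. Log2 CPM (prior count 2) was compared by exact two-sided permutation tests. A count of 0 was read as up to 3 counts, which covers counting error only. Also tried were DESeq2 1.42.0, limma 3.58.1 voom, RLE or upper-quartile factors, other filters, fewer libraries, a replicate block, and each library left out. Replicates of a group differed by 16.91 to 299.5 chi-square per degree of freedom, so none was a duplicate. On simulated counts edgeR recovered 66% and 77% of 4-fold and 12% and 14% of 2-fold changes in LowAhR+AD against LowAhR (14450 and 14417 genes).

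Members and gene lists were chosen with earlier results of these data known. Named were all members, 5 other STAT and SOCS genes (a further gene of this family is not reported here), at most 3 genes per pathway list with the lowest edgeR p among those called in LowAhR+AD against LowAhR, and the 3 genes most like each called member. Annotation was GENCODE vM21 (GRCm38).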

Additional observations from a re-analysis of the deposited data

Results flagged for a closer look

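Among 36 sets of 4 libraries (9 genes in 4 groups), 2 held a library whose gap to its nearest neighbour, over the whole range, passed Dixon's 95% limit for 4 values; chance passes it in about 1 of 20 sets. Stat4 in Cont replicate 3 had 0.863 CPM (7 counts), and Stat4 in LowAhR+AD replicate 3 had 2.95 CPM (38 counts), with 0 counts in the other 3 libraries of either group. With 3 libraries at 0 the gap equals the whole range whatever the remaining count is. The rate of about 1 in 20 therefore does not apply to these 2 sets.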

How the results depend on the processing

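Leaving out each library in turn gave 0 to 2 members called in LowAhR+AD against LowAhR, 0 to 3 in LowAhR+AD against Cont, 0 to 2 in LowAhR+AD+BJ against LowAhR, and 0 in LowAhR against Cont and in LowAhR+AD+BJ against LowAhR+AD. Without LowAhR+AD replicate 1 the numbers were 2, 3 and 2, with 11.4%, 23.2% and 11.4% of all genes called. In LowAhR+AD against LowAhR (1 as reported), DESeq2 called 2 (18% of all genes), the filter of at least 10 counts in every library 2 (19.2%), and the model of only the 8 libraries compared 0 (5.49%). In LowAhR+AD+BJ against LowAhR (0 as reported), RLE factors and upper-quartile factors called 1 each (6.98% and 6.95% of all genes), and DESeq2, the stricter filter and the 8 libraries 2 each (11.2%, 11.9% and 8.66%). On simulated counts 26.8% and 19.9% of DESeq2 calls were false, against 3.70% and 4.21% with edgeR. These counts were drawn from the dispersions that edgeR had fitted, with 200 changed genes and no library like LowAhR+AD replicate 1. The shares may therefore favour edgeR and need not hold for the real libraries. Of the 45 log2 fold changes of members, the direction turned in limma voom for Stat5b in LowAhR against Cont (0.019), Stat4 in LowAhR+AD against Cont (-0.063) and, in LowAhR+AD+BJ against LowAhR+AD, Socs2 (-0.046) and Stat2 (0.18). Same-numbered replicates did not deviate together (3 of 24 pairs over 0.1; r from -0.055 to 0.17), so they share only a number; with the replicate block, Stat5b in LowAhR against Cont (0.015), Stat4 in LowAhR+AD+BJ against LowAhR (0.81) and Stat5b in LowAhR+AD+BJ against LowAhR+AD (-0.0047) turned, and the same number of members passed (1, 2 and 0). With 1 library left out the direction turned for these log2 fold changes, given as lowest to highest: in LowAhR against Cont, Stat5b -0.16 to 0.18, Stat2 -0.16 to 0.19 and Socs1 -0.55 to 0.51. In LowAhR+AD against LowAhR, Stat5a -0.049 (without LowAhR+AD replicate 1) to 0.40 and Stat2 -0.91 to 0.0014. In LowAhR+AD against Cont, Stat2 -0.86 to 0.063 and Stat4 -4.15 to 5.92. In LowAhR+AD+BJ against LowAhR+AD, Stat5b -0.22 to 0.15, Stat5a -0.27 to 0.13, Socs2 -0.40 to 0.27, Stat2 -0.46 to 0.44 and Socs3 -0.15 to 0.52. In LowAhR+AD+BJ against LowAhR, Stat4 -0.87 to 0.33, Cish -0.023 to 0.36, Socs2 -0.62 to 0.044, Stat6 -0.37 to 0.043 and Stat5a -0.15 to 0.30. None of these had passed, and the cause was not tested. All other alternatives kept the direction. Low counts limit Stat4 and Socs1.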
